A study of Zea mays and Oryza sativa with 119 samples.

Results

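Sucrose metabolism in the rice leaf was followed through 7 genes, named here by their usual rice names and chosen by their locus identifiers in the rice expression table. They were the sucrose synthase genes SUS1 (LOC_Os03g28330), SUS2 (LOC_Os06g09450), SUS3 (LOC_Os07g42490) and SUS4 (LOC_Os03g22120), the sucrose phosphate synthase gene SPS1 (LOC_Os01g69030), the gene of the cytosolic fructose bisphosphatase (cytosolic FBPase, LOC_Os01g64660) and the sucrose transporter gene SUT1 (LOC_Os03g07480). All 7 were found among the 55986 features of the table. Of these features 17353 had a mean of at least 1 FPKM over all libraries and were tested, and 6 of the 7 genes were among them. FPKM scales fragments by transcript length and by the mapped fragments of the library, so it is a level per length. SUS3 stayed under that mean, so it had no test across all genes.

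The libraries were made from polyadenylated RNA of the third leaf of rice seedlings, Oryza sativa cultivar Nipponbare, aged 14 days and kept in a 12:12 light and dark cycle. No mutant, treatment or second genotype was included. Each leaf was divided into 11 sections of 2 cm, and every section had 4 replicates, each a pool of about 15 plants. The labels number the sections without saying which end of the leaf section 1 comes from, and the comparisons below are by section number.

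In young grass leaves the growing part is a sink that imports sucrose through the phloem, while the mature green part is a source that makes sucrose from photosynthate and exports it. Sucrose synthases split imported sucrose into fructose and UDP-glucose, the precursor of cellulose and other wall polymers. In source tissue the cytosolic FBPase commits triose phosphate to hexose phosphate, sucrose phosphate synthase joins hexose phosphate and UDP-glucose, and proton-coupled transporters of the SUT family move sucrose across the plasma membrane. Transcript levels report neither enzyme activity nor the movement of sugar.

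Some facts of the libraries bear on all results. The number of reads per library is unknown, as FPKM does not keep it. Depth relative to the median library, estimated from the values of 4990 rarely detected genes, was between 0.743 and 1.25. Summed FPKM ran from 462278 to 1187130 per library, with a mean of 512442 in section 1 and 1086740 in section 7. By its profile, 31 of 44 libraries matched their own section best and 12 a neighbouring one. Section 11 replicate 2 matched section 9. Sections 2 to 7 of replicate 1, 6 libraries, each matched the section after their own. Photosynthetic marker genes were above 0 in every section, as the leaf label implies, and their summed FPKM lay between 6121 and 11098 in section 1, between 177862 and 262192 in section 7 and between 69073 and 154623 in section 11. A sum over 4 dividing cell markers was between 11.2 and 50.1 FPKM in section 1 and at most 3.84 FPKM in any other library. For 2 genes listed as senescence markers the sum was between 22.6 and 30.2 FPKM in section 1. It was between 51.8 and 75.3 FPKM in section 9 and between 44.9 and 58.6 FPKM in section 11. As the libraries are of whole tissue, fewer cells of a type and less RNA per cell cannot be told apart.

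The 6 tested genes differed in where their section means were highest. SUS1, SUS2 and SUS4 had their highest means in sections 1 to 3. SPS1 and the cytosolic FBPase had theirs in section 7, and SUT1 in section 3. In replicates 1 to 4 the highest sections were 8, 7, 10 and 9 for SPS1. They were 6, 8, 9 and 8 for the cytosolic FBPase, 6, 3, 5 and 4 for SUT1, and 1, 2, 3 and 4 for SUS4. An F-test across the 11 sections (limma on log2(FPKM + 1), Benjamini-Hochberg adjusted p under 0.05 and section means at least 1 apart on that scale) called all 6 different among sections, with the adjusted p for SUT1, the weakest, at 6.19e-09. The same test called 68.7% of all genes tested, so this count says little about the 6.

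**Figure D1:**
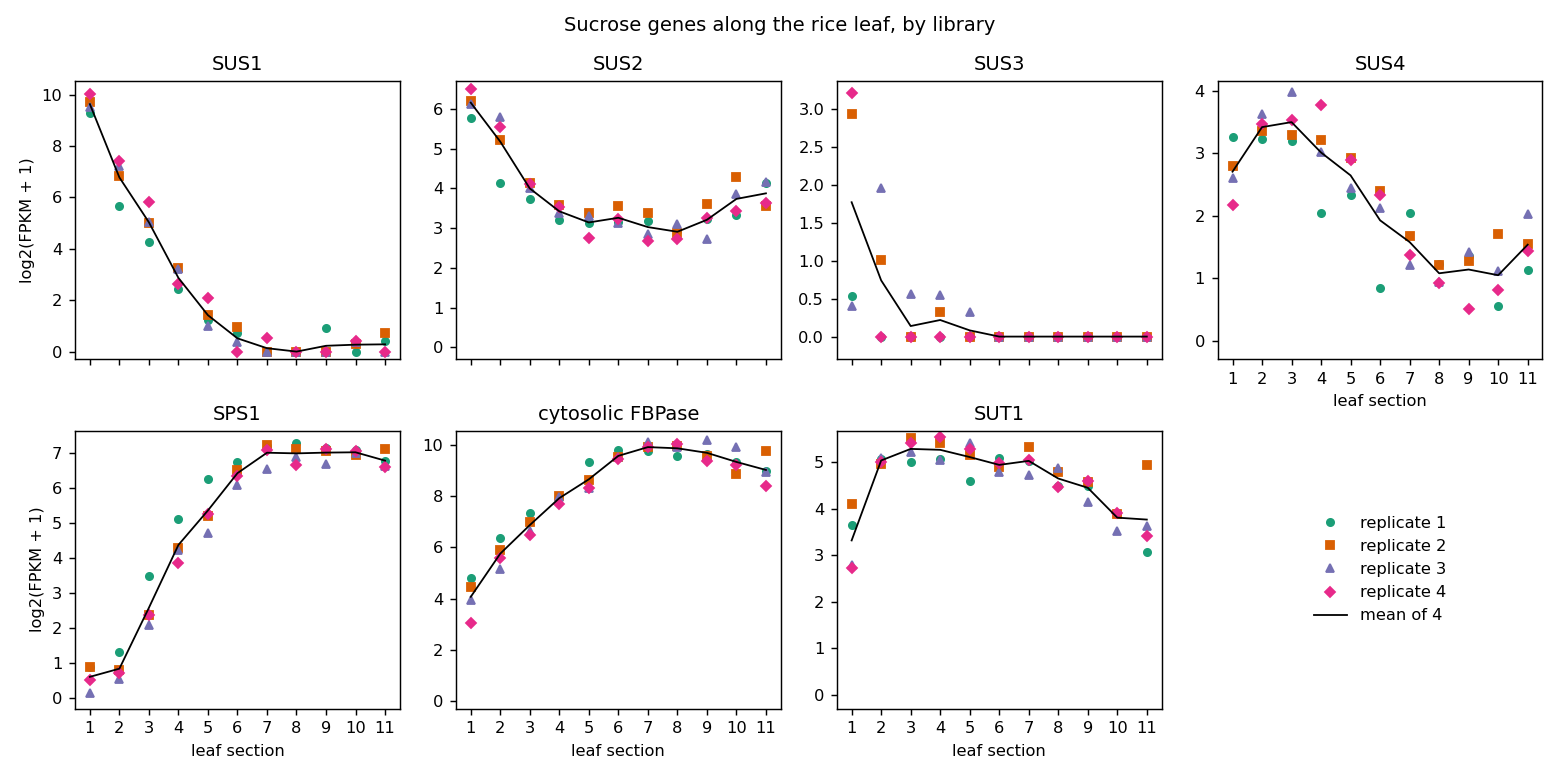
Expression of the 7 sucrose genes as log2(FPKM + 1) (vertical axis) in leaf sections 1 to 11 (horizontal axis), with 1 panel per gene, 1 symbol per replicate and a line through the mean of 4. SUS1 falls from a mean of 805 FPKM in section 1 to 0 in section 8, SPS1 reaches 128.6 FPKM and the cytosolic FBPase 972 FPKM in section 7, and SUT1 forms a plateau between section 2 and section 7.

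Between section 1 and section 6, 3 of the 6 tested genes rose and 2 fell (adjusted p under 0.05 and a log2 change of at least 1). Among all genes tested 17.4% rose and 28.4% fell. Over the 6 genes the log2 change had a median of 0.42, against -0.22 over all genes. Between section 6 and section 11, 0 of the 6 rose and 1 fell, SUT1, against 6.36% and 10.5% of all genes. By limma SUS2 was the 1 higher gene with an unadjusted p under 0.05, at 0.019. The medians there were -0.31 for the 6 and 0 for all genes. Between section 1 and section 11, 2 rose and 3 fell, against 17.2% and 30.6% of all genes, with medians of -0.36 and -0.26. The comparisons share sections, so each is given with its own values. Calls over all genes leaned to the lower side, with 38.0% of calls higher in section 6 against 1 and 36.0% in section 11 against 1. After quantile normalization these shares were 50.1% and 51.0%, and the median change of all genes moved to 0.10 and 0.15 on the log2 scale.

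SUS1 had the steepest profile of the sucrose synthase genes. In section 1 its libraries held 616, 834, 729 and 1042 FPKM (mean 805 ± 181, SD, n = 4). In section 2 they held 49.4, 112, 148 and 169 FPKM, and in section 3 they held 18.1, 30.7, 32.2 and 55.8 FPKM. All libraries of section 1 thus lay above all of section 2, while sections 2 and 3 overlapped. Section 4 averaged 6.52 ± 2.09 FPKM and section 5 averaged 1.78 ± 0.98 FPKM. From section 6 on no library held more than 0.916 FPKM, and in section 8 the gene was listed at 0 in all 4. The levels of sections 6 to 11 overlapped in order of their means.

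SUS1 fell by 9.11 ± 0.31 (SE) on the log2(FPKM + 1) scale from section 1 to section 6 (limma, adjusted p = 9.48e-24), in 4 of 4 replicates. This scale understates changes of genes with low values. The change from section 6 to section 11 was -0.23 ± 0.31 (limma, adjusted p = 0.65). Markers of dividing cells were highest in section 1, as given above. Genes of the secondary wall cellulose synthase, which mark xylem and fibres, summed to between 159 and 261 FPKM in section 1, between 209 and 333 FPKM in section 2 and between 4.13 and 10.0 FPKM in section 11. The part of either cell type in the fall of SUS1 was not tested.

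SUS2 shared the high level in section 1 but remained expressed along the whole leaf. It was measured at 53.9, 73.0, 68.9 and 90.1 FPKM in section 1, and at 7.83, 10.7, 7.69 and 8.38 FPKM in section 6. It was lowest in section 8, at 6.54 ± 0.84 FPKM (SD, n = 4). No library was at 0, and the libraries of sections 1 and 6 did not overlap. SUS2 fell by 2.90 ± 0.25 on the log2 scale between them (limma, adjusted p = 1.44e-12).

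Toward section 11 the SUS2 level was 16.6, 10.7, 16.9 and 11.5 FPKM, each library above those of section 6. That separation was very narrow, with the lowest library of section 11 at 10.728 FPKM and the highest of section 6 at 10.722 FPKM. The difference of 0.61 ± 0.25 did not pass the test (limma, adjusted p = 0.0698). Section 11 remained 2.28 ± 0.25 below section 1 on the log2 scale (limma, adjusted p = 4.16e-10).

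SUS3 was near or at 0 in most libraries. In section 1 it was measured at 0.454, 6.69, 0.319 and 8.28 FPKM, so that replicates 2 and 4 stood well above replicates 1 and 3. Section 2 gave 0, 1.01, 2.89 and 0 FPKM. In sections 3 to 5 no library passed 0.471 FPKM, and the gene was listed at 0 in all libraries of sections 6 to 11.

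SUS4 was expressed at low levels throughout, with its highest mean in section 3 instead of section 1. Its libraries held 8.56, 5.90, 5.05 and 3.49 FPKM in section 1 and between 8.14 and 14.8 FPKM in section 3, with a mean of 10.5 ± 3.0 FPKM. Its lowest mean was 1.12 ± 0.25 FPKM, in section 8. In section 6 they held 0.791, 4.27, 3.36 and 4.03 FPKM, with replicate 1 lowest, and in section 11 they held 1.19, 1.93, 3.06 and 1.70 FPKM. Every library of section 11 was below every library of section 1, while sections 1 and 6 overlapped, and every pair of neighbours in the order of mean levels overlapped as well.

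Section 6 against 1 gave a SUS4 change of -0.78 ± 0.32 on the log2 scale, which passed the adjusted p but was under the size required (limma, adjusted p = 0.0366). From section 1 to section 11 SUS4 fell by 1.17 ± 0.32 (limma, adjusted p = 0.0019). That call was lost after quantile normalization, where the change was -0.66 (limma, adjusted p = 0.0634), and the change dropped under the size required after upper quartile scaling, at -0.97, without replicate 1, at -0.85, and with a pseudocount of 5, at -0.61.

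The make-up of the summed sucrose synthase level changed along the leaf. The FPKM of SUS1 to SUS4 summed to 886 ± 198 (SD, n = 4) in section 1, to 24.3 ± 5.9 in section 4, to 7.66 ± 0.85 in section 8 and to 16.2 ± 3.5 in section 11. SUS1 made up 90.8% ± 0.19 of the sum in section 1, 55.2% ± 8.8 in section 3 and 11.7% ± 6.3 in section 5. SUS2 made up 8.08% ± 0.33 in section 1 and 86.0% ± 4.6 in section 11. SUS4 was largest as a share in section 5, at 35.0% ± 5.5, against 0.709% ± 0.40 in section 1.

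All 6 pairs of sucrose synthase genes were compared by the change of their log2 ratio from section 1 to section 11, with an exact 2-sided permutation test over libraries whose smallest p is 0.0286. The SUS1 to SUS2 ratio was 3.47 ± 0.06 (SD, n = 4) in section 1 and -3.59 ± 0.56 in section 11, a difference of -7.06. For SUS1 to SUS4 the difference was -8.18. In section 11 SUS1 was listed at 0 in 2 of 4 libraries and was at most 0.645 FPKM, so the sizes follow the pseudocount of 1. With a pseudocount of 0.1 they were -9.34 and -10.2, and with 5 they were -5.24 and -6.64. Both pairs reached the smallest exact p of 0.0286, which adjustment over the 6 pairs raised to 0.0571. The SUS2 to SUS4 ratio changed by -1.11 (exact p = 0.0571, adjusted 0.0857). As SUS3 was listed at 0 in all libraries of section 11, the size of the 3 changes that involve it is set by the pseudocount and is not read here. By the exact test 0 of the 6 pairs passed 0.05 after adjustment, and 3 passed it unadjusted, among them SUS1 to SUS3, which is not read here. A pair at the smallest p of 0.0286 passes after adjustment only if enough other pairs reach it too. The count of 0 therefore does not show that the ratios stayed alike. This test did not use the pairing of replicates, under which the smallest exact p is 0.125. How reads shared between similar sequences were assigned is not given in the sources used here, so the division of reads among these related genes is uncertain.

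SPS1 ran opposite to SUS1. Its libraries held 0.839, 0.849, 0.118 and 0.427 FPKM in section 1, and section 2 averaged 0.830 ± 0.444 FPKM (SD, n = 4). In section 3 they held 10.2, 4.16, 3.28 and 4.14 FPKM, in section 4 they held 33.3, 18.3, 17.8 and 13.6 FPKM, and in section 5 they held 74.7, 35.7, 25.1 and 37.2 FPKM. Replicate 1 was the highest of the 4 in each of sections 2 to 6, which are among the sections whose replicate 1 library matched the next section by its profile.

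From section 6, with 106, 89.5, 66.9 and 79.0 FPKM, SPS1 came to a plateau. Section means from 7 to 10 lay between 126.5 and 128.6 FPKM, and section 11 gave 108, 136, 97.7 and 94.7 FPKM. Neighbours in the order of mean levels overlapped except section 4 against 3 and section 3 against 2. The mean of section 6 was 153 times that of section 1. That multiple is imprecise, as section 1 averaged only 0.558 FPKM, with libraries from 0.118 to 0.849 FPKM. SPS1 rose by 5.80 ± 0.27 on the log2(FPKM + 1) scale (limma, adjusted p = 5.57e-20) and changed by 0.36 ± 0.27 from section 6 to section 11 (limma, adjusted p = 0.372).

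The cytosolic FBPase had the highest mean of the 7 genes over the leaf, at 511 FPKM. Section 1 held 27.0, 20.9, 14.6 and 7.38 FPKM, and section 2 held between 35.2 and 82.7 FPKM. Section means then stood at 119 ± 32 FPKM in section 3, 243 ± 24 FPKM in section 4 and 423 ± 157 FPKM in section 5. From section 1 to section 5 no section overlapped with the next. Its libraries in section 6 held 890, 731, 743 and 705 FPKM, and the mean peaked in section 7 at 972 ± 97 FPKM.

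Past section 7 the means of the cytosolic FBPase were 945 ± 125 FPKM in section 8, 850 ± 231 FPKM in section 9 and 670 ± 207 FPKM in section 10. Section 11 held 508, 872, 494 and 337 FPKM, with replicate 2, the library that matched section 9, highest. The gene rose by 5.51 ± 0.29 from section 1 to section 6 on the log2 scale (limma, adjusted p = 1.33e-18), 43.9 times by mean FPKM. From section 6 to section 11 the change was -0.55 ± 0.29 (limma, adjusted p = 0.171), and the libraries overlapped. The summed photosynthetic markers were also highest in section 7, as were those listed as RBCS2 and RBCS3. The markers listed as RBCS4, RCA and LHCB1 had their highest means in sections 8, 9 and 5. LHCB1 was lowest in section 11, at 0.677 times its mean in section 1, where the other markers were at least 7.39 times theirs. The part of these markers in the profiles of the cytosolic FBPase and SPS1 was not tested.

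SUT1 differed from the enzymes in being high in the middle of the series and low at both ends. Its libraries held 11.4, 16.2, 5.92 and 5.62 FPKM in section 1 and 32.6, 30.1, 33.1 and 31.1 FPKM in section 2, with no overlap. The mean was 38.2 ± 5.9 FPKM (SD, n = 4) in section 3, the highest, and 29.7 ± 2.7 FPKM in section 6. It was 24.2 ± 3.6 FPKM in section 8 and 13.1 ± 1.7 FPKM in section 10. Section 11 held 7.43, 29.8, 11.3 and 9.60 FPKM, where replicate 2 alone reached the level of section 6. Sections 1 and 11 overlapped, as did all neighbours in the order of mean levels.

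SUT1 rose by 1.62 ± 0.26 on the log2 scale from section 1 to section 6 (limma, adjusted p = 1.92e-06), or 3.03 times by mean FPKM. It fell by 1.17 ± 0.26 from section 6 to section 11 (limma, adjusted p = 0.000883), with section 11 the lower in 3 of 4 replicates. Without section 11 replicate 2 the change was -1.57. The call was lost when only the sections compared were fitted (limma, adjusted p = 0.0757), without replicate 1, at -0.90, and with a pseudocount of 5, at -0.95. Section 11 against 1 gave 0.45 ± 0.26 (limma, adjusted p = 0.147), and 0.05 without section 11 replicate 2.

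SPS1 was set against the sucrose synthases by the log2 ratio of SPS1 to the summed SUS1 to SUS4 level, both as FPKM + 1. The ratio was -9.16 ± 0.51 (SD, n = 4) in section 1, -6.44 ± 1.05 in section 2 and -3.30 ± 1.02 in section 3. In section 4 it was -0.26 ± 0.89, with replicate 1 at 1.04 and the other 3 below 0. It was 1.34 ± 0.75 in section 5, 3.87 ± 0.23 in section 8, the highest, and 2.69 ± 0.44 in section 11. SPS1 exceeded the summed sucrose synthases in 0 of 4 libraries in each of sections 1 to 3, in 1 of 4 in section 4 and in 4 of 4 in each of sections 5 to 11. The levels of SPS1 and of this sum therefore crossed about section 4, where SPS1 averaged 20.8 FPKM and the sum 24.3 FPKM.

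The size of the ratio and the place of the crossing held for SPS1 alone. In section 1 the genes listed as SPS8, SPS6 and SPS2 averaged 27.9 ± 4.4, 14.9 ± 1.5 and 7.28 ± 1.66 FPKM, all above SPS1. With the sum of all 5 listed SPS genes in its place, a choice made after seeing the data, the ratio was -4.09 ± 0.32 in section 1, 0.13 ± 0.57 in section 3 and 3.65 ± 0.34 in section 11. That sum exceeded the sum of SUS1 to SUS4 in 2 of 4 libraries in section 3 and in 4 of 4 in section 4. The genes listed as SUS5, SUS6 and SUS7 are in neither ratio. In section 3 the SPS sum averaged 63.5 FPKM and SUS1 to SUS4 averaged 59.9 FPKM. SUS6 and SUS5 averaged 4.32 and 1.62 FPKM there, and SUS7 was listed at 0. The place of this crossing therefore depends on which sucrose synthases are summed. Invertases, which also split sucrose, are not part of either ratio, and NIN8, NIN4 and CIN1, listed as invertases, averaged 104, 30.9 and 28.2 FPKM in section 11.

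**Figure D2:**
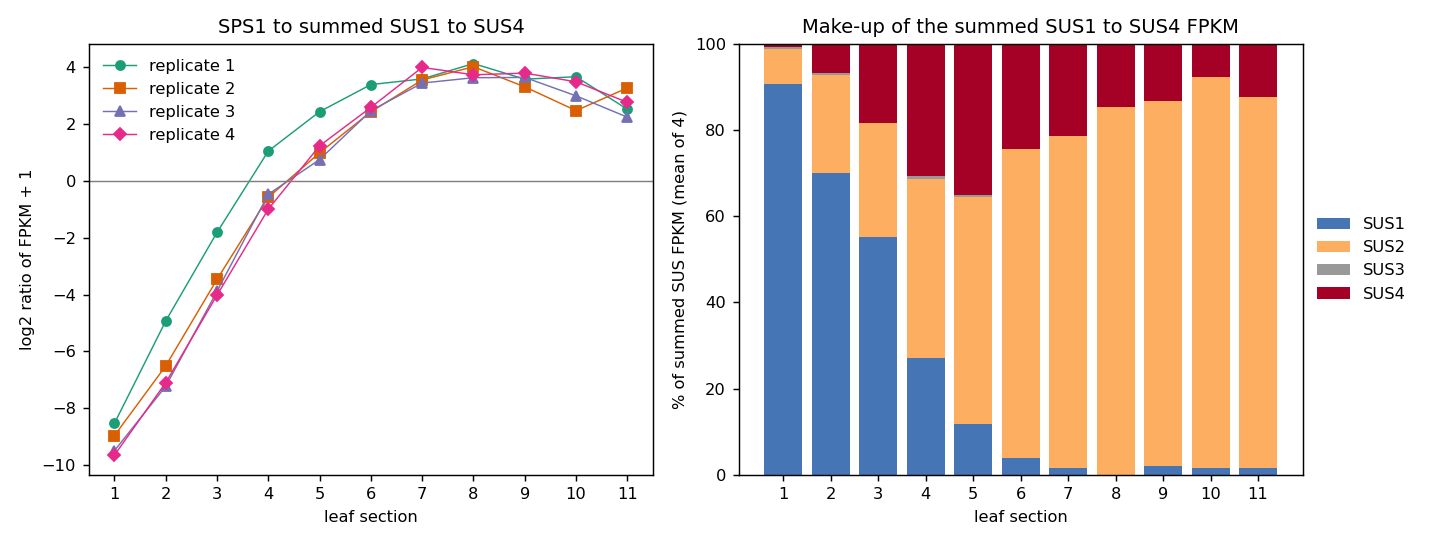
The left panel plots the log2 ratio of SPS1 to the summed SUS1 to SUS4 level (FPKM + 1) against leaf section, with 1 line per replicate and a grey line at 0; the right panel shows the mean percent of the summed sucrose synthase FPKM from each gene as stacked bars. The ratio passes from -9.16 in section 1 to 3.87 in section 8, and SUS1 gives way to SUS2 as the largest share between sections 3 and 4.

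Steps between neighbouring sections were tested for the 6 genes, 60 tests in all, of which 12 were called; all 12 lay in the 5 steps up to section 6. From section 1 to section 2 SUS1 fell by 2.85 ± 0.31, while the cytosolic FBPase and SUT1 rose by 1.69 ± 0.29 and 1.72 ± 0.26 on the log2 scale (limma, adjusted p at most 2.44e-05). In that step 5.79% of all genes rose and 9.12% fell. SUT1 was called in this step and in no later one. SPS1 changed by 0.23 ± 0.27 here (limma, adjusted p = 0.609) and was called in the next step.

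From section 2 to section 3 SUS1 and SUS2 fell, by 1.75 and 1.18, and SPS1 and the cytosolic FBPase rose, by 1.74 and 1.11, on the log2 scale, against 1.01% of all genes higher and 2.43% lower. From section 3 to section 4 SUS1 fell by 2.16, and SPS1 and the cytosolic FBPase rose by 1.79 and 1.05, against 0.939% higher and 1.68% lower. SUS1 fell again from section 4 to section 5, by 1.45, where 0.156% of all genes rose and 0.599% fell. SPS1 rose once more from section 5 to section 6, by 1.06, where 1.33% rose and 2.46% fell. When only the 2 sections of a step were fitted, 3 of the 12 calls remained, all in the step from section 1 to section 2. Leaving out a single replicate ended calls of SUS2 and the cytosolic FBPase from section 2 to 3 (replicates 3 or 4, and 2 or 3), of the cytosolic FBPase from 3 to 4 (2, 3 or 4), of SUS1 from 4 to 5 (2 or 3) and of SPS1 from 5 to 6 (2, 3 or 4). A pseudocount of 0.1 ended the calls of SUS1 from section 2 to 3, 3 to 4 and 4 to 5, at adjusted p = 0.236, 0.0838 and 0.350 by limma, and of SPS1 from 5 to 6, at 0.0846. A pseudocount of 5 ended those of SPS1 from 2 to 3, at a change of 0.80, of SUS1 from 4 to 5, at -0.76, and of SPS1 from 5 to 6, at 0.99. With no filter on low values the cytosolic FBPase was not called from 3 to 4 (limma, adjusted p = 0.0535).

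In the 5 steps after section 6 none of the 30 tests was called by limma, and 3 had an unadjusted p under 0.05. The share of all genes called in either direction was 1.46% from section 6 to 7, 0.19% from 7 to 8, 0.196% from 8 to 9 and 0% in the last 2 steps. Those last 2 steps had 1071 and 647 genes at an unadjusted p under 0.05.

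**Figure D3:**
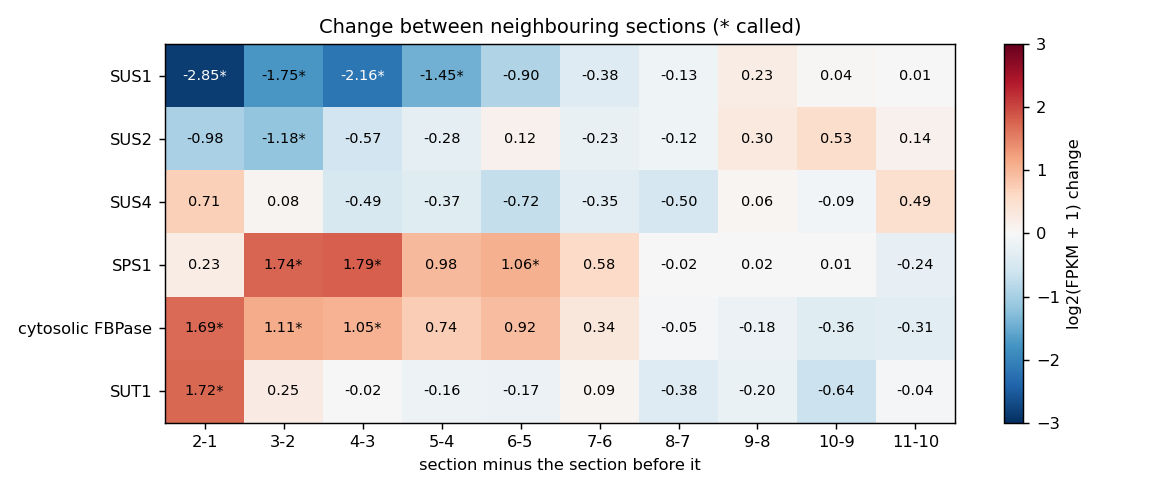
Change of log2(FPKM + 1) from each leaf section to the next (columns) for the 6 tested genes (rows), with the value printed, red for higher and blue for lower, and an asterisk on each of the 12 called changes. The called changes stand in the first 5 columns, with SUS1 at -2.85 in the first.

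Each gene was also placed along the leaf by the centre of its FPKM, the mean section number weighted by level, in each replicate. The order was SUS1 at section 1.23 ± 0.04 (SD, n = 4), SUS3 at 1.41 ± 0.68, SUS2 at 3.96 ± 0.47, SUS4 at 4.02 ± 0.24, SUT1 at 5.53 ± 0.13, the cytosolic FBPase at 7.64 ± 0.21 and SPS1 at 8.23 ± 0.20. SUT1 lay before the cytosolic FBPase and the cytosolic FBPase before SPS1 in 4 of 4 replicates. SUS3 lay after SUS1 in 2 of 4 and SUS4 after SUS2 in 3 of 4, so neither pair was ordered. SUT1 reached 50% of its own highest level in section 2 in all 4 replicates. SPS1 reached 50% in section 6 in all 4, and the cytosolic FBPase in section 5 in replicate 1 and in section 6 in the others.

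Likeness of profiles was measured by Pearson r of section means of log2(FPKM + 1) over the 11 sections, as a description across sections cut from the same pooled plants. SPS1 was most like the gene listed as SPS11 (LOC_Os11g12810), a further sucrose phosphate synthase, with r = 0.997, and none of the other tested genes had a higher r with SPS1. SUT1 was most like TPT, listed as the triose phosphate translocator of the chloroplast envelope, among the listed genes (r = 0.933), and in the whole table most like LOC_Os03g41510 (r = 0.981). Among the listed genes SUS1 was most like SUS6, listed as another sucrose synthase (r = 0.986), and the cytosolic FBPase was most like the plastid FBPase (r = 0.991), while 51 and 54 genes of the table were more like them. In the same lists SUS2 was most like SUS1 (r = 0.916) and SUS4 most like SPS8 (r = 0.956), where 569 and 390 genes of the table had a higher r. Among the 6 themselves r was -0.993 between SUS1 and the cytosolic FBPase and 0.972 between SPS1 and the cytosolic FBPase.

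The other genes of the pathway were taken from lists of sucrose synthesis, triose phosphate use, sugar transport and sucrose breakdown. Their locus identifiers were listed from general knowledge of rice gene names and were not checked against an annotation, so each name and role below is the one listed. Their counts are to be read beside the 17.4% of all genes that rose and the 28.4% that fell from section 1 to section 6, and the 6.36% and 10.5% from section 6 to section 11. In sucrose synthesis 8 of 9 genes were tested, of which 4 rose and 1 fell from section 1 to section 6, with a median log2 change of 0.69. From section 6 to section 11, 2 rose and 0 fell, with a median of 0.46. SPS11 averaged 0.064 FPKM in section 1, 20.2 ± 5.1 FPKM (SD, n = 4) in section 6 and 25.1 ± 2.5 FPKM in section 11. SPP1, listed as a sucrose phosphate phosphatase, which completes sucrose synthesis, averaged 3.93, 22.1 and 41.8 FPKM in the same sections and rose by 3.10 ± 0.22 from section 1 to section 11.

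SPS6 followed a later course, with means of 14.9, 17.6 and 44.3 FPKM in sections 1, 6 and 11, and rose by 1.29 ± 0.18 on the log2 scale after section 6 (limma, adjusted p = 1.31e-06). UGP1, listed as a UDP-glucose pyrophosphorylase, was the most highly expressed of this list and the 1 that fell by section 6. Its mean was 308 ± 63 FPKM in section 1, 51.7 ± 22.3 FPKM in section 6 and 165 ± 40 FPKM in section 11. UGP1 fell by 2.63 ± 0.28 and then rose by 1.73 ± 0.28 on the log2 scale (limma, adjusted p at most 1.36e-05).

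All 3 genes of triose phosphate use rose from section 1 to section 6, with a median of 2.82. F2KP, listed as the enzyme that makes and breaks a sugar phosphate inhibitor of the cytosolic FBPase, averaged 17.6 ± 1.8, 196 ± 12 and 185 ± 7 FPKM in sections 1, 6 and 11. The gene listed as the plastid FBPase of the Calvin-Benson cycle averaged 125 ± 38, 886 ± 244 and 792 ± 122 FPKM. TPT averaged 477 ± 122, 1338 ± 166 and 462 ± 233 FPKM, and was the 1 gene of this list that fell after section 6, by 1.65 ± 0.23 on the log2 scale (limma, adjusted p = 6.81e-07). Its rise of 1.52 by section 6 was no longer called after quantile normalization, at 0.78.

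Of 9 sugar transport genes 5 were tested, of which 2 rose and 1 fell from section 1 to section 6, and 0 rose and 2 fell from section 6 to section 11, with medians of 0.08 and -0.02. SWEET14, listed as a sucrose efflux carrier, averaged 0.174 FPKM in section 1, 6.21 ± 1.56 FPKM in section 6 and 1.04 ± 0.67 FPKM in section 11. It rose by 2.61 and then fell by 1.85 on the log2 scale, and the fall dropped under the size required, to -0.89, with a pseudocount of 5. SWEET13, named after its values were seen, averaged 3.52 ± 2.19, 33.7 ± 14.4 and 4.48 ± 6.18 FPKM in the same sections and was also called in both directions. These were the 2 genes of the list that, like SUT1, were higher in section 6 than in both other sections. SWEET15 ran otherwise, at 28.5 ± 7.5 FPKM in section 1, 79.2 ± 40.5 FPKM in section 2 and at most 0.671 FPKM in any library of section 6. SUT2, listed as a vacuolar sucrose transporter and the most highly expressed of the list, averaged 35.5 ± 12.5, 37.2 ± 10.9 and 47.0 ± 11.6 FPKM and was called in neither direction.

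In sucrose breakdown 14 of 21 genes were tested, with 6 higher and 4 lower in section 6 than in section 1 (median 0.62), and 2 higher and 2 lower in section 11 than in section 6 (median -0.32). SUS6 averaged 22.3 ± 4.9 FPKM in section 1 and 0.539 ± 0.342 FPKM in section 6, and fell by 3.92 ± 0.30 on the log2 scale. CIN2, listed as a cell wall invertase, which splits sucrose outside the cell, was between 10.9 and 14.9 FPKM in section 1 and listed at 0 in all libraries of sections 6 and 11. NIN4, listed as a neutral invertase, ran the other way, at 0.245 FPKM in section 1, 23.3 ± 4.9 FPKM in section 6 and 30.9 ± 2.0 FPKM in section 11. NIN8, also listed as a neutral invertase and the most highly expressed of the tested genes of this list, averaged 21.3 ± 4.5, 32.2 ± 6.2 and 104 ± 15 FPKM, and rose by 1.67 ± 0.16 after section 6 (limma, adjusted p = 6.15e-10). INV2, NIN2 and CIN1, named after their values were seen, rose and then fell by mean FPKM, as SUT1 did. In section 6 against 1 they stood at 16.8, 12.8 and 2.81 times, and in section 11 against 6 at 0.359, 0.456 and 0.556 times. CIN4 did so too, at 5.21 and then 0.907 times. The multiples of INV2 and NIN2 are imprecise. INV2 averaged only 1.04 FPKM in section 1. The highest library of NIN2 held 160.5 FPKM, far above its highest section mean of 61.1 FPKM, in section 6.

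From section 1 to section 11, where 17.2% of all genes tested rose and 30.6% fell, the counts of higher and lower genes were 4 and 0 of 8 in sucrose synthesis, 2 and 0 of 3 in triose phosphate use, 0 and 1 of 5 in sugar transport, and 7 and 5 of 14 in sucrose breakdown. UGP1, not called here at -0.90, was called lower after quantile normalization, at -1.20, and without replicate 2, at -1.05. SWEET14, also not called here, was called higher after quantile normalization, at 1.10, and with a pseudocount of 0.1, at 2.28. Median log2 changes of these lists were 1.10, 2.68, -0.19 and 1.56, against -0.26 over all genes tested. The lists were not chosen independently of earlier results of these data, and their counts are descriptions.

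**Figure D4:**
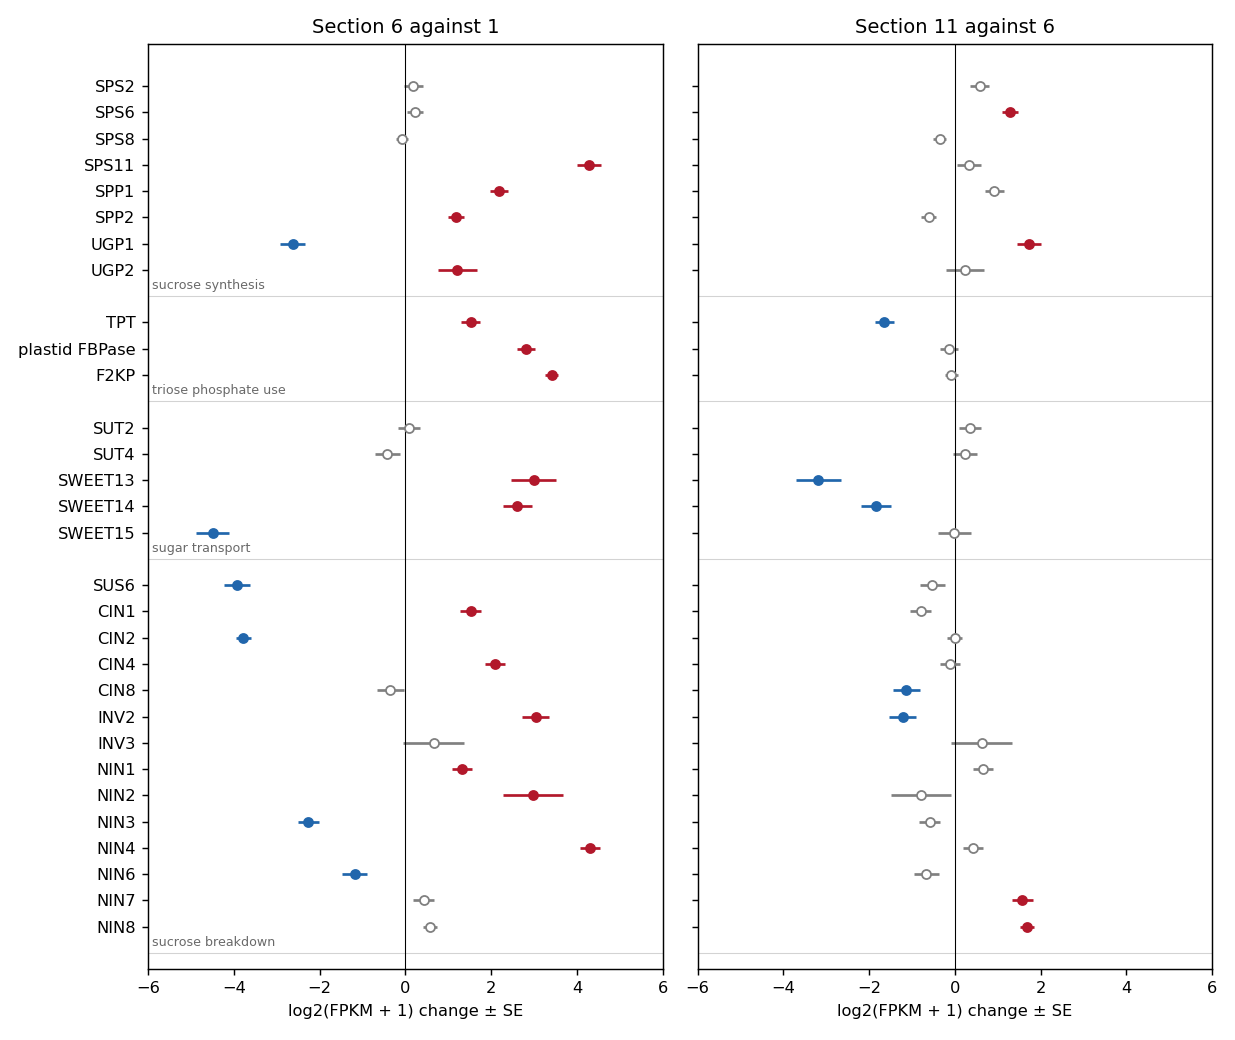
Change of log2(FPKM + 1) with its standard error (horizontal axis) for the tested genes of the 4 pathway lists (vertical axis), from section 1 to 6 (left) and from section 6 to 11 (right), with red for called higher, blue for called lower and open grey for not called. All 3 triose phosphate genes are higher on the left, and SWEET13, SWEET14 and TPT are higher on the left and lower on the right. The fall of SWEET14 is not called with a pseudocount of 5. By mean FPKM, INV2, NIN2, CIN1 and CIN4 of sucrose breakdown also rose and then fell, CIN4 only to 0.907 times its level in section 6.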

How the data were processed

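RNA was taken up in TRIzol and made into strand-specific libraries, per the labels' protocols. FPKM values for rice came in 1 table as deposited by the authors; TopHat2 2.0.10 and Cuffdiff 2.1.1 are named per the submitters' processing notes. Neither the rice build nor the handling of shared reads is given in the sources used here. The maize table was not analysed here. All 44 rice columns matched a labelled library, with 0 left over.

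The R 4.3.3 package limma 3.58.1 was run on log2(FPKM + 1) with a mean-variance trend in 1 fit of all 44 libraries, for genes with a mean of at least 1 FPKM. A change was called at a Benjamini-Hochberg adjusted p under 0.05 over all genes and a log2 change of at least 1. Tables were handled with pandas 2.3.3, and exact permutation tests used scipy 1.17.1. Each replicate is a pool of plants, so p-values measure the spread between pools. FPKM carries no depth, so no counting interval is given. Relative depth was the inverse of a library's median value, against each gene's own median, over genes above 0 in 5 to 15 libraries. Their values were taken to be near those of single fragments. Genes expressed in few sections also meet this rule, such as CIN2 at up to 14.9 FPKM, so the depth is approximate. The fit was checked on simulated data.

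The sections of a replicate were cut from the same pooled leaves, so replicate numbers pair the samples. The correlation of deviations from the section mean had a median of 0.108 for libraries of the same number and -0.0371 for others. The deviations of a section sum to 0, so the value for others is tied to the first and is not separate evidence of pairing. The fit was made without the block, with it as an alternative.

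The 7 genes, the pathway and marker lists and the tests were chosen with earlier results of these data known. The files do not pair rice identifiers with names, so names and roles of the pathway and marker genes are those of lists written from general knowledge of rice gene names, with identifiers not checked against an annotation. All 7 genes are described; of each pathway list the 3 tested genes with the largest change from section 1 to section 11 and the 1 with the highest mean are named, and for each of the 7 the gene with the most similar profile. Alternatives were other pseudocounts (0.1 and 5), other filters (none, and 5 FPKM), quantile and upper quartile scaling, no trend, fits of only the sections compared, and each replicate left out. Fits without section 11 replicate 2 and without sections 2 to 7 of replicate 1, and a ratio from all listed SPS genes, were chosen after seeing the data. No sequences are shown.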

Additional observations from a re-analysis of the deposited data

Results flagged for a closer look

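In 70 groups of 4 replicates, 1 per gene and section, a library was looked for whose gap to the nearest of the others was above Dixon's 95% limit, which chance alone passes in about 1 of 20 groups. There were 7, and 4 of them were values under 1 FPKM beside 3 libraries listed at 0. These were SUS1 at 0.442 FPKM in section 7 replicate 4 and at 0.872 FPKM in section 9 replicate 1, and SUS3 at 0.471 FPKM in section 3 replicate 3 and at 0.255 FPKM in section 5 replicate 3. SPS1 in section 3 replicate 1 was at 10.2 FPKM, against 3.28 to 4.16 FPKM in the others; that library was among those that matched the next section. The cytosolic FBPase in section 4 replicate 4 was at 208 FPKM, against 253 to 259 FPKM. SUT1 in section 10 replicate 3 was at 10.5 FPKM, against 13.8 to 14.1 FPKM.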

How the results depend on the processing

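All 6 tested genes stayed called by the F-test under every alternative run, except that SUS4 is not tested with a filter of 5 FPKM. SUS1, SUS2, SPS1 and the cytosolic FBPase kept their calls in section 6 against 1 and 11 against 1 under those run, as SUT1 did in section 6 against 1. The count of genes called in section 6 against 1, 7944, became 5269 with a pseudocount of 5 and 5186 with a filter of 5 FPKM. For section 11 against 6 the count of 2918 became 1440 with a pseudocount of 5. With a filter of 5 FPKM, 8286 calls in section 11 against 1 became 5444 and the 11921 of the F-test became 7703; the filter tests fewer genes. The 1 call among the 6 in section 11 against 6, SUT1, became 0 with a pseudocount of 5 and when only the sections compared were fitted, and ranged from 0 to 1 with each replicate left out. SUS4 in section 6 against 1 was called without replicate 4, at -1.09. The 12 step calls became 3 when only the sections compared were fitted, ranged from 8 to 14 with each replicate left out, and were 14 without sections 2 to 7 of replicate 1. The SPS1 ratio in section 1 was -10.6 with a pseudocount of 0.1, against -9.16, and with all listed SPS genes it was -4.09 there and 3.65 in section 11. On the log2 scale 3 of the 7 genes kept their place in the order along the leaf, which began with SUS3 and SUS1 and placed SUS4 before SUS2. With a pseudocount of 5, 5 sucrose synthase pairs passed 0.05, against 0. The SUS2 to SUS3 change reversed to 1.90 with a pseudocount of 0.1, and SUS3 to SUS4 ranged from -1.34 to 0.0195 with each replicate left out, the latter without replicate 4. The causes were not tested. The replicate block, a pairing by pooled plants, gave 8047, 3110 and 8382 calls in sections 6 against 1, 11 against 6 and 11 against 1, and changed no call of the 6 genes; for the sucrose synthase pairs its smallest exact p is 0.125.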
